A study of Gallus gallus with 24 samples.

Results

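The retinal pigment epithelium (RPE), a pigmented sheet of cells behind the retina, was explanted from chicken embryos on embryonic day 4 and kept for 48 h with fibroblast growth factor 2 (FGF2) alone or with FGF2 and dichloroacetate (DCA). The comparison set 3 libraries from explants given FGF2 at 10 ng/ml with DCA at 20 mM against 3 libraries from explants given FGF2 at 10 ng/ml alone. These are 6 of the 24 polyadenylated-RNA libraries of the series, each a biological replicate of 3 pooled explants from specific pathogen free birds. The other 18 libraries came from such explants in maintenance medium (control) or with DCA alone at 24 and 48 h, and from both FGF2 groups at 24 h. The test took every gene whose mean reached 10 normalized counts across all 24 libraries, which left 15001 of 24356 genes.

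FGF2 acts through receptor tyrosine kinases and the ERK cascade, and in the young chick eye it can turn RPE into neural retina. That change passes through loss of pigment genes, renewed cell division and the appearance of retinal progenitor and then neuronal genes. DCA blocks the pyruvate dehydrogenase kinases (PDK1 to PDK4), which switch off pyruvate dehydrogenase, and so it favours the burning of pyruvate in mitochondria over its reduction to lactate. The design compares RPE explants given FGF2 with and without DCA. The RNA libraries do not measure the metabolic shift itself.

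RPE genes were present in all 6 libraries. The melanosome matrix protein gene PMEL had 72838, 81446 and 72467 normalized counts in the control replicates and 21351, 18059.8 and 14862 with FGF2. Read depth, in units of 1e6 reads, ran from 34.67 to 72.72 in the 6 libraries, and the deepest was FGF2 replicate 3, while the other 5 held 34.67 to 42.44. Replicates of the same group correlated at r of 0.967 to 0.980 across genes, and libraries of different groups at 0.913 to 0.928. Values below are normalized counts in replicates 1, 2 and 3, and a log2 fold change is on the scale of log2(normalized count + 1). Where an SE follows it after ±, that SE comes from the limma fit to all 24 libraries, not from the printed replicates alone. A gene is called when the limma p, adjusted over all 15001 genes by the Benjamini-Hochberg method, is under 0.05. Normalized counts depend on gene length, so levels are compared between groups and not between genes.

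Adding DCA to FGF2 changed a large share of the transcriptome at 48 h. Of the 15001 genes, 7923 were called (52.8%), with 3817 higher (25.4%) and 4106 lower (27.4%). The replicates of the groups did not overlap for 9179 genes (61.2%). A change of at least 2-fold was found for 2507 of the called genes, 1464 higher and 1043 lower. The median log2 difference over all genes was -0.04. These shares are the background against which the gene lists below should be read, and the lists share some genes. In broad terms, progenitor, neuronal, replication and mitosis genes were lower with DCA. Some cell cycle inhibitors, the TGF-beta ligands and most matrix, redox and ERK-induced genes were higher.

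**Figure D1:**
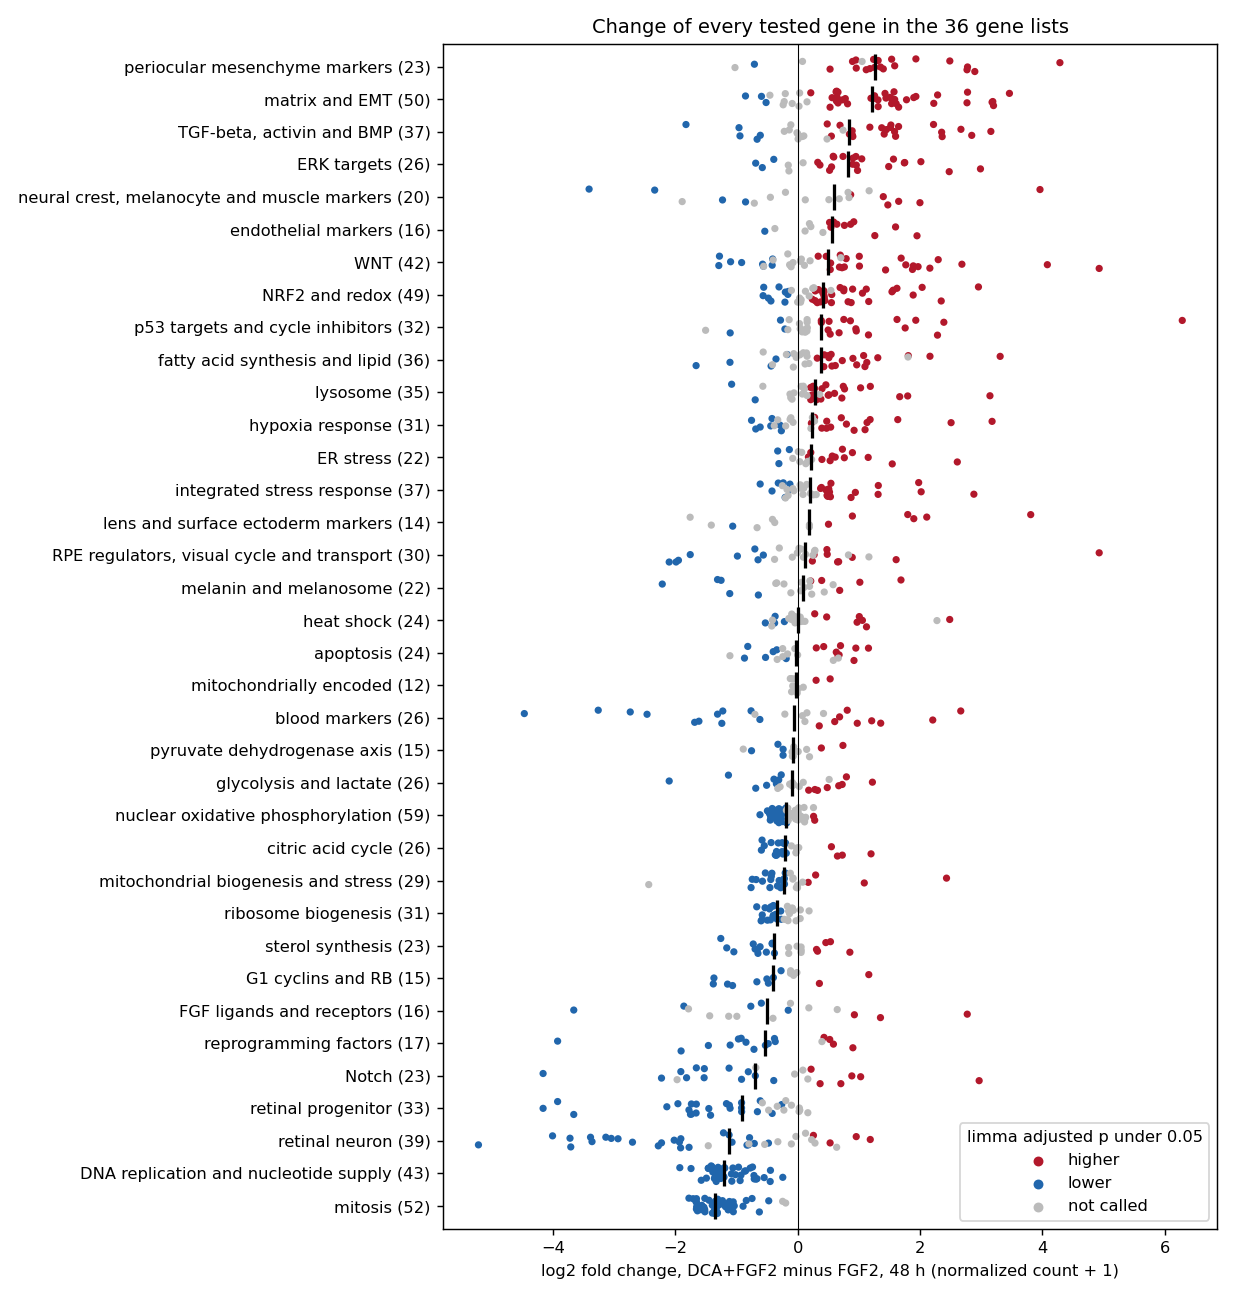
Log2 fold change of DCA+FGF2 minus FGF2 at 48 h (x axis) for each tested gene of the 36 gene lists (rows, number of genes in brackets), with red points called higher, blue points called lower, grey points not called and a black tick at the list median. Mitosis (median -1.35) and DNA replication (-1.21) lie at the bottom, and matrix (1.22) and periocular mesenchyme markers (1.25) at the top.

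Retinal progenitor genes were lower with DCA. Of 33 tested, 23 were called lower and 0 higher, with a median of -0.92. SOX2 (ENSGALG00000043460), the SoxB1 factor of neural progenitors, had 3217, 2848 and 2883 with FGF2 and 584, 969 and 789 with DCA added (log2 fold change -1.96 ± 0.26, adjusted p = 1.4e-06). All FGF2 libraries stood above all DCA+FGF2 libraries, and the latter still stood above control (58.6, 73.9 and 55.3). With DCA alone SOX2 had 102, 114 and 109, above control. RAX, an eye-field homeobox gene, had 3632, 3906 and 3417 with FGF2 and 760.4, 1453 and 1174 with DCA added (log2 fold change -1.74 ± 0.25, adjusted p = 6.5e-06). Unlike SOX2, RAX was also lower with DCA in the absence of FGF2, at 269, 404 and 332 against 662, 1264 and 1036 in control. Its relative RAX2 differed by -2.14 ± 0.16 and LHX2, needed for eye formation, by -0.66 ± 0.10, and in both the groups did not overlap.

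Other progenitor genes with small adjusted p included MSI1, an RNA-binding protein of neural stem cells (-1.17 ± 0.07), and NR2E1, a nuclear receptor of neural progenitors (-1.12 ± 0.09). The fatty-acid-binding protein FABP7, carried by radial glia and progenitors, had 128188, 130634 and 139978 with FGF2 and 36356, 50851 and 39907 with DCA added (log2 fold change -1.66 ± 0.17, adjusted p = 5.3e-08). The groups did not overlap for FABP7, although the DCA+FGF2 libraries still held more of it than the control libraries (3288, 4079 and 2329).

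PAX6 and SIX6, which were high in both FGF2 groups, did not pass the test. PAX6 (ENSGALG00000012123), the regulator of eye development, had 23887, 28060.5 and 26934 with FGF2 and 25519.6, 26064 and 21840.5 with DCA added, and the replicates overlapped (log2 fold change -0.10 ± 0.16, adjusted p = 0.61). The homeobox gene SIX6 (ENSGALG00000020359) had 30142, 28770.4 and 27114 with FGF2 but 21575, 27117 and 26666 with DCA added (log2 fold change -0.20 ± 0.13, adjusted p = 0.2). Both groups stood well above control in SIX6, where the replicates had 3672, 4087 and 3839.

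**Figure D2:**
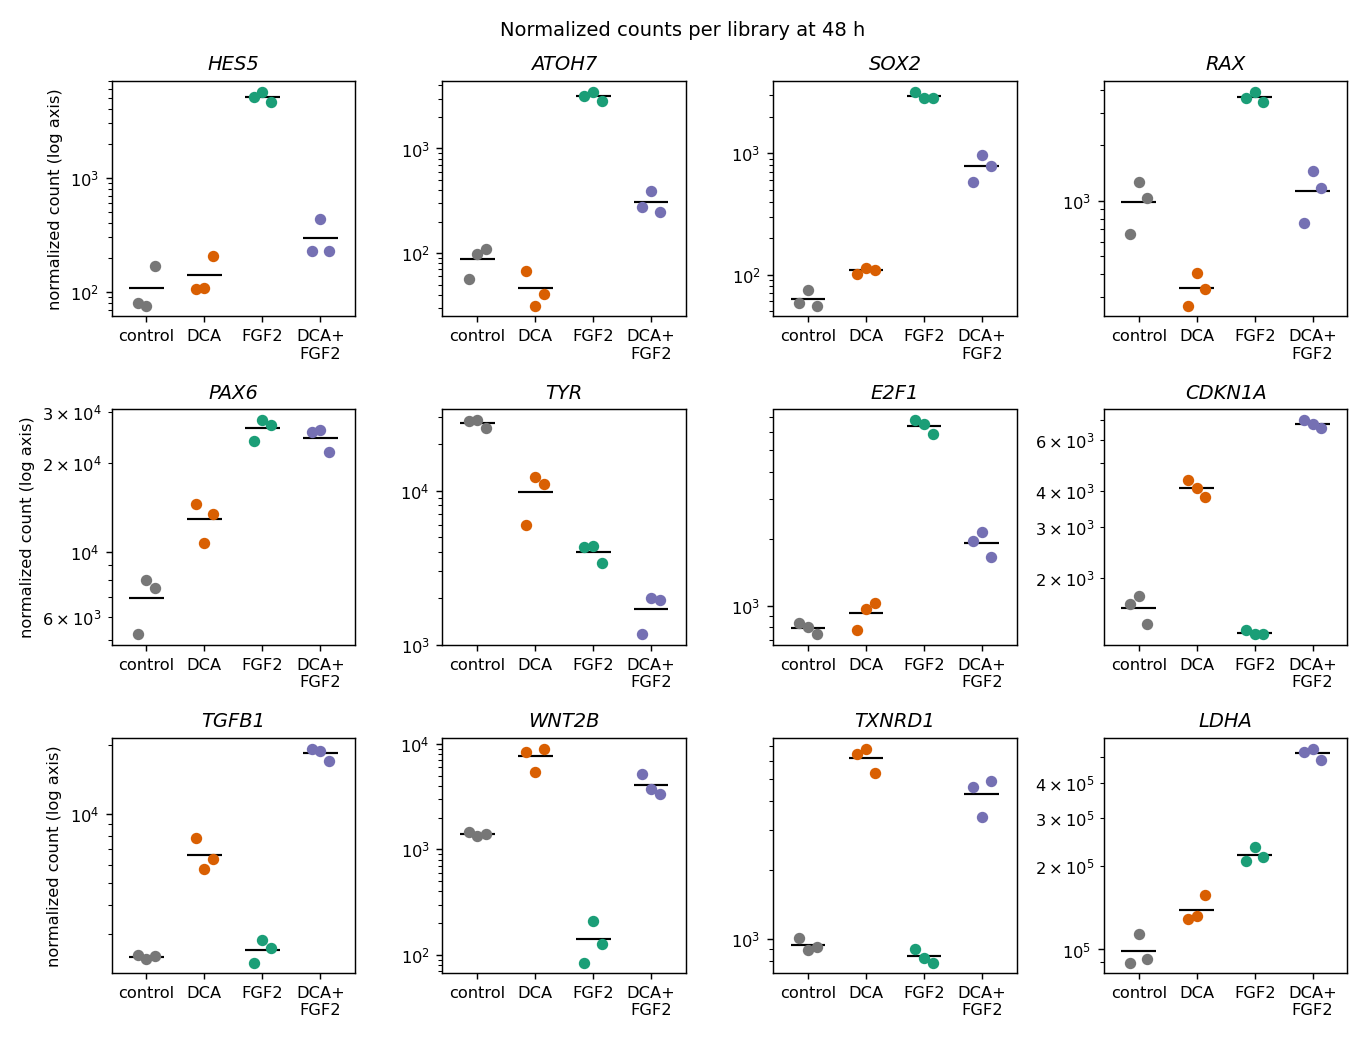
Normalized counts (log y axis, its range set for each panel) of 12 genes in every library at 48 h, with 3 points per group and a black line at the mean. HES5, ATOH7, SOX2, RAX and E2F1 are high with FGF2 and lower once DCA is added, PAX6 overlaps between both FGF2 groups, and CDKN1A, TGFB1, WNT2B, TXNRD1 and LDHA are higher with DCA+FGF2 than with FGF2.

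Genes of newly formed retinal neurons were lower as well. Of 39 tested, 25 were lower and 4 higher, with a median of -1.12, and without FGF2 replicate 3 the counts were 24 lower and 1 higher. ATOH7 (ENSGALG00000052760), the proneural factor that retinal ganglion cells need, had 3176, 3481 and 2809.6 with FGF2 and 277, 394 and 245 with DCA added (log2 fold change -3.39 ± 0.29, adjusted p = 3.6e-09). FOXN4 (ENSGALG00000005062), which gives progenitors the competence to form amacrine and horizontal cells, had 3186, 3299 and 3075 in the FGF2 libraries and 289, 479.7 and 407 in the DCA+FGF2 libraries (log2 fold change -3.05 ± 0.31, adjusted p = 4.9e-08). For both genes every DCA+FGF2 library was below every FGF2 library. The neuronal RNA-binding protein ELAVL4 differed by -1.78 ± 0.13 and the microtubule regulator STMN1 by -1.08 ± 0.07. POU4F3, a factor of sensory neurons, had 712, 527 and 483 with FGF2 and 18.6, 67.9 and 31.3 with both (log2 fold change -4.01 ± 0.66, adjusted p = 2.6e-05).

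Several of the lowest fold changes of the whole comparison belonged to neural genes. The SoxB1 factor SOX1 fell from 248, 269 and 304 to 6.20, 12.9 and 19.4 (log2 fold change -4.43 ± 0.77, adjusted p = 4.9e-05), and POU3F1, a POU factor of early neural cells, had 282, 211 and 208 with FGF2 and 9.30, 9.36 and 1.08 with DCA added. The calcium-binding protein CALB1, found in horizontal and amacrine cells, had 930.2, 1246 and 984 with FGF2 against 36.2, 135 and 58.3 with both (log2 fold change -3.97 ± 1.08, adjusted p = 0.0039). The serine protease PRSS56, linked to eye size, had 2229.5, 2715 and 3445 with FGF2, 38.2, 80.7 and 78.8 with both and 0 in each DCA library (log2 fold change -5.44 ± 0.44, adjusted p = 1.6e-09). CYP26A1, which breaks down retinoic acid, differed by -3.93 ± 0.54.

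The Notch pathway keeps neural progenitors dividing while their neighbours become neurons. It has DLL ligands on the sending cell, NOTCH receptors on the receiving cell and some HES genes as targets. Of 23 pathway genes tested, 12 were lower and 6 higher (median -0.69). The target HES5 (ENSGALG00000001141) had 5084, 5687 and 4666 with FGF2 and 229, 439 and 229.9 with DCA added (log2 fold change -4.16 ± 0.34, adjusted p = 1.6e-09), above the control range of 75.6 to 169.9. The receptor NOTCH1 went from 17451, 15442 and 15118 to 5389, 5393 and 4446 (log2 fold change -1.66 ± 0.11, adjusted p = 7.5e-11). Its ligand DLL1 differed by -2.23 ± 0.18, the glycosyltransferase LFNG by -1.53 ± 0.08 and the HES family member HES6 by -1.91 ± 0.14. JAG1, a ligand of the other main class, moved the other way, from 520.4, 437 and 446 to 4606, 2878 and 3658 (log2 fold change 2.96 ± 0.17, adjusted p = 7.4e-12). JAG2, of the same class as JAG1, was called lower (log2 fold change -1.12, adjusted p = 5.6e-06). Other HES and HEY genes were split. HES4 (-1.53) and HEY1 (-0.92) were lower, HEY2 (1.03) and HEYL (0.36) were higher, and HES1 (0.16) was not called. NOTCH2 (0.70) and MAML2 (0.88) were also higher. Among 17 reprogramming factors, 12 were lower and 4 higher (median -0.53). The RNA-binding protein IGF2BP3 (-0.93 ± 0.05) and the transcription factor MYCN (-1.46 ± 0.13) were among those lower. MYCN's relative MYC (0.90) and the chromatin protein HMGA1 (0.58 ± 0.08) were among those higher.

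Pigment genes were split. Of 22 melanin and melanosome genes, 5 were higher and 5 lower (median 0.08). These counts are near the shares over all genes (25.4% higher, 27.4% lower), so the list as a whole does not stand out. TYR (ENSGALG00000017237), the rate-limiting enzyme of melanin synthesis, was lower with DCA, at 4279, 4352 and 3369.6 with FGF2 and 1171, 2010.2 and 1960.4 with both (log2 fold change -1.25 ± 0.24, adjusted p = 1.3e-04). Its relative TYRP1 had 19532, 11687 and 11208 with FGF2 but 4916, 5450.4 and 6226 with DCA added (log2 fold change -1.31 ± 0.26, adjusted p = 2.4e-04). PMEL had 14163, 15237 and 12957 with DCA added, overlapping in part with FGF2 (log2 fold change -0.35 ± 0.18, adjusted p = 0.11), and it was called lower without FGF2 replicate 3 (-0.48). MLANA, a melanosome protein, was higher, from 43.8, 151 and 55.0 to 207, 278 and 218 (log2 fold change 1.69 ± 0.32, adjusted p = 1.3e-04), while the control libraries held 963 to 1463.

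RPE regulators and visual cycle genes went in both directions, 9 of 30 higher and 8 lower (median 0.11). This split is also near that of all genes (25.4% higher, 27.4% lower). MITF (ENSGALG00000039583), the transcription factor that drives pigment cell genes, had 915, 799.8 and 805 with FGF2 and 1323, 1249 and 1379.6 with DCA added (log2 fold change 0.65 ± 0.12, adjusted p = 1.1e-04). OTX2, its partner in RPE, had 7506, 7800.1 and 6939 in the FGF2 libraries and 9147, 8584 and 8481 in the DCA+FGF2 libraries (log2 fold change 0.24 ± 0.08, adjusted p = 0.015), and it was not called without FGF2 replicate 3 (0.19) or without DCA+FGF2 replicate 1 (0.20). In contrast, the retinoid carrier RLBP1 had 14586, 9466 and 7805 with FGF2 and 2201, 2943 and 2871 with both (log2 fold change -1.95 ± 0.28, adjusted p = 5.9e-06). RPE65, the isomerase of the visual cycle, differed by -1.99 ± 0.37. WNT2B (ENSGALG00000034196), a Wnt ligand of the RPE and the ciliary margin, had one of the largest increases of the comparison. Its levels were 84.4, 211 and 128 with FGF2, 5238, 3717 and 3363 with DCA added, 8357, 5452 and 9017 with DCA alone and 1454, 1344 and 1411 in control (log2 fold change 4.93 ± 0.30, adjusted p = 2.3e-11).

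Genes of cell division were lower with DCA. All 43 tested genes of DNA replication and nucleotide supply were called lower (median -1.21), as were 50 of 52 mitosis genes, with 0 higher (median -1.35). E2F1 (ENSGALG00000003045), the transcription factor that switches on S-phase genes, had 6801, 6529 and 5892 with FGF2 and 1953, 2151 and 1648 with DCA added (log2 fold change -1.75 ± 0.12, adjusted p = 7.5e-11). The DNA polymerase alpha subunit POLA1 had 6891, 6634 and 6593 with FGF2 against 2672, 2932 and 2805 with both (log2 fold change -1.26 ± 0.08, adjusted p = 3.7e-11). ORC1, which licenses replication origins, differed by -1.93 ± 0.17 and the ribonucleotide reductase subunit RRM1 by -1.36 ± 0.11. Of the mitotic genes, the condensin subunit NCAPG had 4396, 4203 and 4634 with FGF2 but 1309, 1663 and 1251 with DCA added (log2 fold change -1.66 ± 0.14, adjusted p = 3.1e-09), and the spindle protein HMMR differed by -1.71 ± 0.15. In each of these genes the lowest FGF2 library was above the highest DCA+FGF2 library, and the DCA+FGF2 libraries of E2F1, POLA1 and NCAPG stayed above the control libraries. In tissue RNA, fewer cells of a type and less RNA per cell cannot be told apart.

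The cyclins and inhibitors that gate entry into S phase moved as well. Of 15 genes of the G1 cyclin and RB list, 9 were lower and 2 higher (median -0.40). CCND1 (ENSGALG00000007555), the D-type cyclin that growth factors induce, went from 3962, 3861 and 4250.1 to 1533, 1762 and 1358 (log2 fold change -1.38 ± 0.11, adjusted p = 2.0e-09). CCND3 went the other way, from 863, 932 and 844 to 2355, 1769 and 1823 (log2 fold change 1.16 ± 0.11, adjusted p = 2.3e-08). TFDP2, a dimer partner of E2F factors, was lower (-1.37 ± 0.07). Among 32 p53 targets and cell cycle inhibitors, 17 were higher and 3 lower (median 0.38). CDKN2B (ENSGALG00000026137), an inhibitor of the cyclin D kinases that TGF-beta induces, had the largest fold change among the genes the naming rule ranks, with 64.6, 82.2 and 114 with FGF2 and 9363, 4703 and 6779 with DCA added (log2 fold change 6.29 ± 0.91, adjusted p = 5.8e-06). CDKN1A (ENSGALG00000028318), the p21 inhibitor and a p53 target, had 1329, 1281 and 1281 in the FGF2 libraries and 7008, 6809 and 6561 in the DCA+FGF2 libraries (log2 fold change 2.39 ± 0.12, adjusted p = 2.7e-12). The death receptor TNFRSF10B (1.75 ± 0.11), the stress sensor SESN2 (1.93 ± 0.21) and the apoptosis effector BAK1 (0.95 ± 0.05) were also higher. The 3 lower were TP53I11 (-1.11), CCNG2 (-0.28) and BTG1 (-0.21). The inhibitors CDKN1B (0.12) and CDKN2C (-1.51) and the p53 target FDXR (-0.14) were among the 12 not called. The apoptosis list itself was mixed, with 9 of 24 higher and 6 lower (median -0.03), and its median was 0.12 without FGF2 replicate 3. Ribosome biogenesis genes, which feed growth, were lower in 18 of 31 and higher in 0 (median -0.34), led by the pseudouridine synthase DKC1 (-0.67 ± 0.08).

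Most genes of the redox list were higher, while the integrated stress response and heat shock lists were mixed. NRF2 is the transcription factor that induces antioxidant enzymes when its inhibitor KEAP1 is modified, and of 49 genes of this list 30 were higher and 9 lower (median 0.41). TXNRD1 (ENSGALG00000035345), thioredoxin reductase, had 905, 827 and 785 with FGF2 and 4596, 3426 and 4896 with DCA added (log2 fold change 2.34 ± 0.12, adjusted p = 2.0e-12). SQSTM1, the autophagy receptor p62, had 1811, 1789.7 and 1829 with FGF2 against 5199.8, 5281 and 5518 with both (log2 fold change 1.56 ± 0.07, adjusted p = 5.9e-13). The export pump ABCC1 differed by 2.03 ± 0.11 and sulfiredoxin, SRXN1, by 1.54 ± 0.11. None of these overlapped between the groups. The 9 lower genes of the list included CAT (-0.56), GCLC (-0.44) and GCLM (-0.15). The integrated stress response, in which ATF4 raises amino acid supply, gave 16 of 37 higher and 7 lower (median 0.21). CEBPB had 458, 547 and 499 with FGF2 and 1854, 2298 and 1949.6 with both (log2 fold change 2.02 ± 0.16, adjusted p = 1.3e-09), the cystine carrier SLC7A11 differed by 2.88 ± 0.24, asparagine synthetase ASNS by 0.94 ± 0.14 and ATF4 itself by 0.48 ± 0.07. The 7 lower genes of this list included DDIT4 (-0.62), STC2 (-0.42) and the tRNA synthetase genes SARS (-0.32) and MARS (-0.21). CEBPG (0.09) and SLC7A5 (0.04) were not called.

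Of 22 ER stress genes 12 were higher and 3 lower (median 0.22). Those higher included the transcription factor CREB3L1 (2.61 ± 0.20) and the chaperone HSPA5 (0.61 ± 0.06). The 3 lower were CRELD2 (-0.33), PDIA4 (-0.31) and PDIA3 (-0.14), and HSP90B1 (0.13), CANX (0.06) and CALR (0.03) were not called. Heat shock genes had 7 of 24 higher and 4 lower with a median of 0.00, whose sign turned under TMM scaling (-0.02). Lysosome genes were higher in 22 of 35 and lower in 2 (median 0.27). The collagen-degrading cathepsin CTSK went from 1244, 898 and 1322 to 10554, 10639.8 and 9053 (log2 fold change 3.14 ± 0.20, adjusted p = 4.7e-11), and the cholesterol carrier NPC2 differed by 1.67 ± 0.11.

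ERK-induced genes were mostly higher with DCA. Of 26 tested, 20 were higher and 3 lower (median 0.82). The 3 lower were ETV5 (-0.69), SPRY2 (-0.58) and DUSP4 (-0.39). Without FGF2, the median difference of this list between DCA and control at 48 h was 0.56. Between FGF2 and control at 48 h the list median, from group means, was -0.008. Whether the differences with DCA reflect ERK activity was not tested. DUSP6, the phosphatase that ERK induces to limit itself, had 4605, 4277 and 4944 with FGF2 and 7877, 7586 and 7573 with DCA added (log2 fold change 0.74 ± 0.14, adjusted p = 9.4e-05). FOSL2, an AP-1 subunit, had 137, 108 and 199.5 with FGF2 but 1328, 1081 and 1042 with DCA added (log2 fold change 2.99 ± 0.20, adjusted p = 1.1e-10). The groups were separate in both. KLF2 (2.48 ± 0.16) and the immediate-early factor EGR1 (1.56 ± 0.11) were higher as well, although stress and serum factors also induce these genes. Of 16 FGF ligands and receptors, 3 were higher and 5 lower (median -0.50). FGF10, a ligand of mesenchyme, had 116, 40.1 and 102 in the FGF2 libraries and 631, 563 and 439 in the DCA+FGF2 libraries (log2 fold change 2.77 ± 0.33, adjusted p = 3.4e-07), and the intracellular family member FGF13 differed by -1.86 ± 0.36.

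In the pyruvate dehydrogenase axis, the known target of DCA, 2 of 15 tested genes were higher and 4 lower (median -0.07). PDK1 (ENSGALG00000013235) had 3014, 2870.4 and 3117 with FGF2 and 1758, 1796 and 1768 with DCA added (log2 fold change -0.76 ± 0.12, adjusted p = 2.6e-05), and the groups did not overlap. PDK4, the kinase raised in fasting, had 503, 586 and 588 with FGF2 against 883, 829.6 and 1098 with both (log2 fold change 0.74 ± 0.14, adjusted p = 2.0e-04). PDK2 had 824, 808 and 821 with FGF2 but 817, 882 and 769 with DCA added, overlapping (log2 fold change 0.01 ± 0.11, adjusted p = 0.97). PDK3 differed by -0.33 ± 0.11, with its call lost without FGF2 replicate 1 or DCA+FGF2 replicate 2 (-0.26 without the latter), and the phosphatase PDP1 differed by 0.38 ± 0.10.

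Among 26 glycolysis and lactate genes, 8 were higher and 8 lower (median -0.09), near the shares over all genes (25.4% higher, 27.4% lower). LDHA (ENSGALG00000006300), the lactate dehydrogenase subunit that makes lactate, had 209668, 234716 and 217070.0 with FGF2 and 517482, 534141 and 487784 with DCA added (log2 fold change 1.22 ± 0.12, adjusted p = 2.6e-08). LDHB, the subunit of tissues that burn lactate, differed by -0.27 ± 0.08. Of the lactate carriers, SLC16A3 differed by 0.48 ± 0.13, SLC16A1 by -1.13 ± 0.20 and SLC16A8 by -2.10, all called. SLC16A7 (-0.29) was not called. The glycolytic enzymes ALDOC (0.67 ± 0.06) and PFKP (0.73 ± 0.09) were higher, and ENO1 (-0.51 ± 0.08) and the glucose carrier SLC2A1 (-0.69 ± 0.12) were lower.

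Genes of mitochondrial energy metabolism leaned down by small amounts. Nuclear oxidative phosphorylation genes were lower in 32 of 59 and higher in 2 (median -0.19), with the ATP synthase beta subunit ATP5B at 54539.6, 53208 and 51351 in the FGF2 libraries and 34364, 37602 and 31844 in the DCA+FGF2 libraries (log2 fold change -0.62 ± 0.05, adjusted p = 3.9e-09). Citric acid cycle genes were lower in 16 of 26 and higher in 4 (median -0.22). Mitochondrial biogenesis genes were lower in 17 of 29 and higher in 4 (median -0.23), with the mitochondrial DNA packaging factor TFAM at -0.76 ± 0.06, while the coactivator PPARGC1A had 85.5, 39.2 and 44.0 with FGF2 against 315, 277 and 277 with both (log2 fold change 2.43 ± 0.27, adjusted p = 1.3e-07). Of 12 genes encoded in the mitochondrial genome, 2 were higher and 0 lower (median -0.03), and quantile normalization gave 2 higher and 4 lower. In the hypoxia list 15 of 31 were higher and 7 lower (median 0.24). The smallest adjusted p belonged to the lysyl oxidase LOX, also a member of the matrix list, and the collagen hydroxylase PLOD1 (1.10 ± 0.06). Those lower included PDK1 (-0.76), SLC2A1 (-0.69), DDIT4 (-0.62) and BNIP3 (-0.44), and VEGFA (0.27) and CA9 (-0.39) were not called.

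Lipid genes were split. Of 23 sterol synthesis genes, 12 were lower and 5 higher (median -0.38), and of 36 fatty acid and lipid genes 18 were higher and 5 lower (median 0.37). Squalene synthase, FDFT1, had 14994, 14013 and 14364 with FGF2 and 6849, 6788 and 5793 with DCA added (log2 fold change -1.16 ± 0.16, adjusted p = 3.9e-06). LBR, a sterol reductase of the nuclear envelope, differed by -1.26 ± 0.09. On the fatty acid side, the regulator SREBF1 differed by 1.10 ± 0.07. ANGPTL4, an inhibitor of lipoprotein lipase, had 3431, 3581 and 3419 with FGF2 but 16912, 16510.3 and 13459 with DCA added (log2 fold change 2.16 ± 0.12, adjusted p = 1.2e-11). The replicates of FDFT1 and ANGPTL4 did not overlap.

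The TGF-beta family carries signals that arrest epithelial cells and induce matrix. Of 37 genes of TGF-beta, activin and BMP signalling, 22 were higher, 5 lower and 10 not called (median 0.84). Single genes of the list ran from -1.83 to 3.16. The list median was -0.006 for DCA against control at 48 h. Between FGF2 and control at 48 h it was -0.59, from group means. TGFB1 (ENSGALG00000031325) had the smallest adjusted p of the list, with 2251, 2823 and 2618 with FGF2 and 19223, 18785 and 17051 with DCA added (log2 fold change 2.84 ± 0.11, adjusted p = 6.2e-14). TGFB2 had 3472, 3608 and 2978 in the FGF2 libraries and 25292, 20803 and 18169 in the DCA+FGF2 libraries (log2 fold change 2.67 ± 0.17, adjusted p = 6.8e-11), and TGFB3 differed by 1.41 ± 0.10. All DCA+FGF2 libraries were far above all FGF2 libraries, and in TGFB1 they were also above the DCA libraries (7857, 5749.9 and 6340.5). The receptor TGFBR2 (1.58 ± 0.14) and the BMP antagonist NOG (2.22 ± 0.13) were higher too.

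Matrix and epithelial-to-mesenchymal transition (EMT) genes were higher in 39 of 50 and lower in 3 (median 1.22). Between FGF2 and control at 48 h the median of this list, from group means, was -1.38. The 3 lower were ZEB2 (-0.86), FBN1 (-0.59) and ELN (-0.52). CDH1 (-0.46), COL4A1 (-0.22), COL4A2 (-0.24) and LAMA1 (-0.20) were among those not called. The intermediate filament gene VIM, a marker of mesenchymal and of neural progenitor cells, had 63081, 67085 and 62389.5 with FGF2 and 183820.0, 173318 and 160664 with DCA added (log2 fold change 1.43 ± 0.06, adjusted p = 6.2e-13). LOX, which crosslinks collagen, had 127, 139.5 and 156 with FGF2 against 1459, 1168 and 1222 with both (log2 fold change 3.18 ± 0.16, adjusted p = 1.7e-12). TPM1, an actin-binding tropomyosin, had 10882, 11558 and 11619 with FGF2 but 63718, 47224 and 49414 with DCA added (log2 fold change 2.22 ± 0.13, adjusted p = 2.1e-11). The groups were separate in VIM, LOX and TPM1. HAS2, which makes hyaluronan, was among the largest increases of the comparison, at 115, 136 and 131 in the FGF2 libraries and 4272, 2757 and 4133 in the DCA+FGF2 libraries (log2 fold change 4.84 ± 0.41, adjusted p = 2.8e-09). So were the membrane protein EMP1 (4.98 ± 0.43), the stretch-responsive gene ANKRD1 (4.66 ± 0.62) and the secreted Wnt inhibitor SFRP4 (4.65 ± 0.35).

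Markers of periocular mesenchyme, the tissue around the RPE that an explant can carry, moved with the matrix genes. Of 23 markers 19 were higher and 1 lower (median 1.25). Their summed level was 66793 to 78544 with FGF2, 167659 to 194396 with DCA added, 237601 to 340637 with DCA alone and 335224 to 395595 in control. The DCA+FGF2 sums lay above every FGF2 sum and below every sum of the groups without FGF2. POSTN, a matrix protein, had 3677, 3774 and 3615 with FGF2 and 25425, 23911 and 25990.1 with both (log2 fold change 2.77 ± 0.18, adjusted p = 7.1e-11). The mesenchymal homeobox genes PRRX1 (2.89 ± 0.26) and PRRX2 (2.48 ± 0.16) and the proteoglycan LUM (2.77 ± 0.27) were higher as well. TCF21 was listed at 0 in all FGF2 libraries and at 17.6, 17.6 and 20.5 with DCA added. The part of such cells in the matrix, TGF-beta and WNT differences was not tested.

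Other cell types that an explant can hold gave smaller or mixed differences. Endothelial markers were higher in 10 of 16 and lower in 1 (median 0.56), and their sum was 11083 to 12356 with FGF2 and 14730 to 16131 with DCA added, against 46232 to 67230 in control. FLT1, a VEGF receptor, had the largest difference of this list (1.95 ± 0.19). CDH5 (0.12), PECAM1 (0.21), VWF (0.19), TEK (0.41) and KDR (-0.38) were not called, and EGFL7 (-0.54) was lower. Blood markers were higher in 9 of 26 and lower in 11 (median -0.07). The prostaglandin D synthase HPGDS had 8282, 11434 and 8230.3 with FGF2 against 62121, 52856 and 60422 with both (log2 fold change 2.66 ± 0.12, adjusted p = 8.9e-13) and made up most of the increase of the blood marker sum from 33310 to 46644 up to 92386 to 106554. Myeloid and leukocyte genes of that list went in both directions. Among those called lower were the receptor CSF1R at -1.69 ± 0.18, the scavenger receptor MARCO at -2.74 ± 0.27 and the leukocyte phosphatase PTPRC at -1.23 ± 0.16. The antigen-presentation chaperone CD74 (1.21 ± 0.21) and the myeloid factor IRF8 (0.35 ± 0.08) were higher, and the complement genes C1QB (0.15 ± 0.20) and C1QC (0.12 ± 0.19), the protease CTSS (0.07 ± 0.16) and the myeloid factor SPI1 (-0.21 ± 0.20) were not called. GPR34, a receptor of microglia and macrophages, had the lowest fold change among the ranked genes, with 482, 372 and 429 with FGF2 but 27.9, 0 and 22.7 with DCA added (log2 fold change -5.60 ± 0.95, adjusted p = 4.2e-05). Lens and surface ectoderm markers were higher in 6 of 14 and lower in 1 (median 0.19). ASL1, delta-crystallin, had the largest difference of this list (3.81 ± 0.37), and ASL2, BFSP2 and CRYBB2 were also higher. The crystallins CRYAA (0.19), CRYBA1 (0.19), CRYAB (-0.41), CRYBB1 (-1.41) and CRYGN (-1.76) were not called, and GRHL3 (-1.06) was lower. Neural crest, melanocyte and muscle markers were higher in 6 of 20 and lower in 4 (median 0.59), with summed levels of 5447 to 7445 and 6186 to 7486 that overlapped.

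WNT signalling genes were higher in 22 of 42 and lower in 8 (median 0.50). Besides WNT2B, the ligand WNT5B (1.69 ± 0.16) and the receptor FZD6 (1.01 ± 0.09) were higher. The receptor FZD3 (-1.29 ± 0.11) and LGR4, which binds R-spondins (-1.10 ± 0.08), were lower. The largest increases also held CYP24A1, which breaks down vitamin D, with 46.0, 14.3 and 81.9 with FGF2 and 5178, 1676 and 2104 with DCA added (log2 fold change 6.07 ± 0.52, adjusted p = 3.8e-09). The tetraspanin TSPAN8 had 0, 5.73 and 8.24 in the FGF2 libraries and 226, 238 and 229 in the DCA+FGF2 libraries (log2 fold change 5.87 ± 0.65, adjusted p = 1.6e-07).

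The effect of DCA with FGF2 was then set beside its effect without FGF2, from 6 other libraries at 48 h. Of the 3817 genes called higher with FGF2, 2925 (76.6%) also had a positive difference between DCA and control, against 46.8% of all genes. Of the 4106 called lower, 3086 (75.2%) had a negative one, against 53.1% of all genes. The differences were larger with FGF2, with medians of 0.77 with and 0.27 without FGF2 for the genes called higher, and of -0.56 and -0.19 for those called lower. These genes were selected on the larger side, so the medians are descriptions. For the redox list the medians were 0.41 with FGF2 and 0.23 without. The redox genes TXNRD1 and SRXN1 had like differences on both sides. TXNRD1 differed by 2.34 ± 0.12 with FGF2 and by 2.71 ± 0.12 without, and SRXN1 by 1.54 ± 0.11 and 1.56 ± 0.11.

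The difference between both DCA effects, the interaction, uses the same 6 libraries and the 6 without FGF2. It was called for 4517 genes (30.1%), positive for 2267 (15.1%) and negative for 2250 (15%). The interaction was negative in 40 of 43 replication genes and in 50 of 52 mitosis genes, and positive in 0 of either. Their median difference without FGF2 was -0.01 and -0.26. E2F1, for instance, had 835, 806 and 745 in control and 777, 969 and 1033 with DCA, and CCND1 had 1282, 1207 and 1189 and 1316, 1084 and 1274. These levels without FGF2 were below those with FGF2.

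Sterol synthesis had the opposite sign without FGF2. Its median was 0.59 without and -0.38 with FGF2, and the interaction was negative in 20 of 23 genes and positive in 0. FDFT1 had 1842, 2418 and 2125 in control and 3659, 3458 and 3374 with DCA, a log2 difference of 0.72 ± 0.16. Ribosome biogenesis followed the same pattern, with medians of 0.33 without and -0.34 with FGF2 and a negative interaction in 29 of 31 genes. Matrix genes gave a positive interaction in 36 of 50 and a negative one in 2, with a median of 0.06 without FGF2, and mesenchyme markers in 18 of 23 and 0, with a median of -0.34. Lysosome genes were positive in 24 of 35 and negative in 1, and TGF-beta family genes in 16 of 37 and 2. Redox genes were positive in 16 of 49 and negative in 5. Melanin genes were positive in 9 of 22 and negative in 0, with a median of -0.56 without FGF2 and 0.08 with it.

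**Figure D3:**
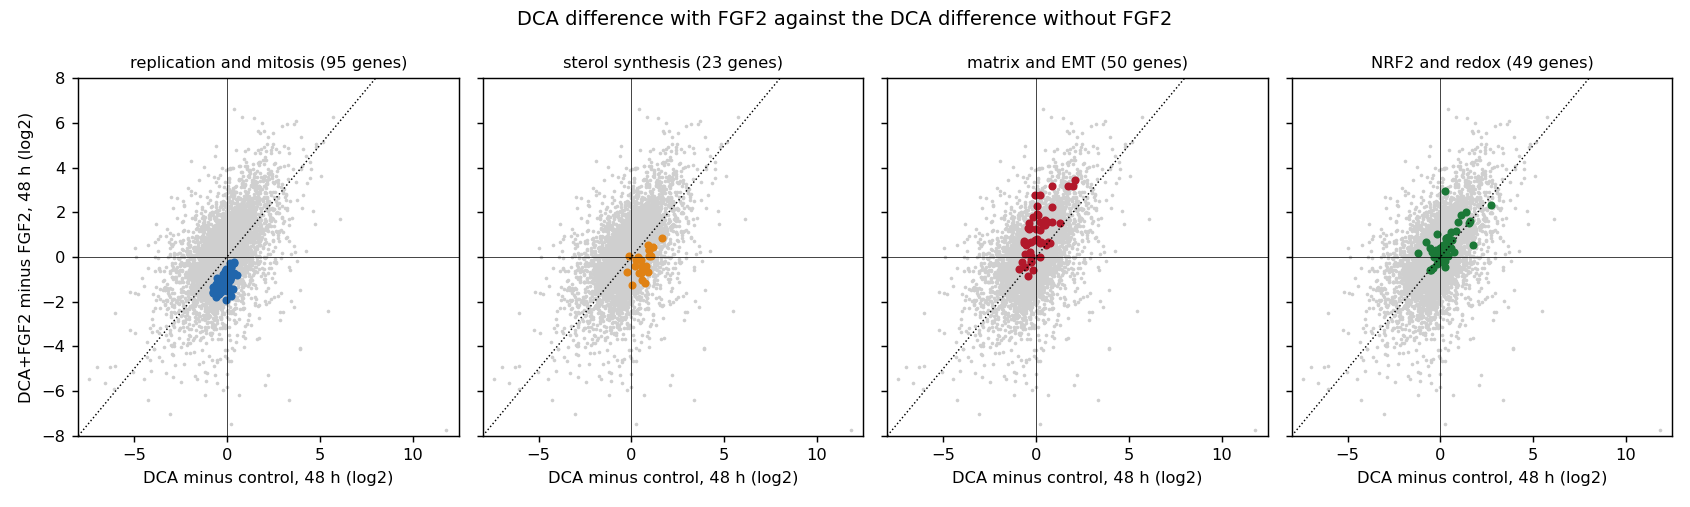
Log2 difference of DCA+FGF2 minus FGF2 (y axis) against that of DCA minus control (x axis) at 48 h for all 15001 tested genes (grey), with the members of the named lists in colour and equal effects on the dotted line. Replication and mitosis genes lie below zero on the y axis around zero on the x axis, sterol genes lie mostly right of zero and below the dotted line, most matrix genes lie above the line, and redox genes lie on both sides of it.

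Among the genes with the most negative interactions were the Notch target HES5, FOXN4 and MYB. HES5 had 79.8, 75.6 and 169.9 in control and 105, 108 and 206 with DCA alone, and its interaction was -4.56 ± 0.48, adjusted p = 6.8e-07. For FOXN4 the interaction was -4.36 ± 0.44, adjusted p = 4.6e-07, with 10.1, 14.0 and 9.21 in control and 38.1, 19.1 and 32.1 with DCA. The transcription factor MYB, found in dividing progenitors, had 1579, 1594 and 1520.2 with FGF2, 241, 219 and 258 with both, 39.4, 87.9 and 129 in control and 372, 213 and 201 with DCA, and its interaction was -4.41 ± 0.52, adjusted p = 2.4e-06. On the positive side, HAS2 had an interaction of 3.70 ± 0.57, adjusted p = 5.6e-05, with 2822, 574 and 618 with DCA alone, where replicate 1 was the highest, and without that library it was 4.44. BMPER, a secreted BMP regulator, had 203, 278 and 377 in control, 128, 91.2 and 85.2 with DCA, 219, 372 and 209 with FGF2 and 2754, 1359.7 and 1387 with both, and an interaction of 4.21 ± 0.52, adjusted p = 4.1e-06. DCA libraries lay below control and DCA+FGF2 libraries above FGF2 for this gene.

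The same contrast at 24 h, from 6 further libraries, had the same sign for most genes called at 48 h. Of those called higher, 3342 (87.6%) were positive at 24 h, against 48.0% of all genes, and of those called lower 3587 (87.4%) were negative, against 52.0%. Medians at 24 h were 0.37 and -0.26. The change of the DCA effect from 24 to 48 h was called for 2569 genes (17.1%), 1394 positive (9.29%) and 1175 negative (7.83%).

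Mitosis genes differed by a median of -1.49 at 24 h and of -1.35 at 48 h, with a positive change called in 1 of 52 and a negative one in 0. Replication genes went from -0.75 to -1.21, with 6 of 43 called as a negative change. Progenitor genes went from a median of -0.37 to -0.92 and neuron genes from -0.14 to -1.12, with a negative change called in 15 of 33 and 15 of 39. Notch genes gave a negative change in 12 of 23 and a positive one in 3. Sterol synthesis turned from 0.46 to -0.38, negative in 17 of 23. Matrix genes went from 0.46 to 1.22, positive in 26 of 50, and lysosome genes were positive in 19 of 35.

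ATOH7 changed direction between the times. At 24 h it had 899 ± 229.8 (SD, n = 3) with FGF2 and 2266 ± 685 with DCA added, a log2 difference of 1.32 ± 0.29, and at 48 h the difference was -3.39 ± 0.29. The change between the times was -4.70 ± 0.41, adjusted p = 4.2e-07. Without FGF2, ATOH7 was also higher with DCA at 24 h, at 1282, 1195 and 846 against 374, 472 and 424 in control. At 48 h it had 68.3, 31.5 and 41.1 with DCA alone and 56.6, 99.4 and 109.5 in control, and the replicates overlapped. HES5 had 179 ± 58.3 with FGF2 and 133 ± 45.2 with both at 24 h, and its change was -3.73 ± 0.48, adjusted p = 1.6e-05. CCND1 likewise differed by -0.02 ± 0.11 at 24 h and by -1.38 ± 0.11 at 48 h. WNT2B had 215 ± 18.2 and 868 ± 365 at 24 h, and its change was 3.00 ± 0.42, adjusted p = 4.6e-05. SOX3, a SoxB1 factor, had 572 ± 108 with FGF2 and 340.4 ± 109.6 with both at 24 h, and 311, 239 and 272 with FGF2 against 1709, 1150.2 and 995 with both at 48 h. Its change was 2.98 ± 0.56, adjusted p = 7.4e-04, and at 48 h it was higher with DCA (log2 fold change 2.20 ± 0.39, adjusted p = 7.3e-05), while SOX1 and SOX2 were lower. TXNRD1 was already at 4146 ± 285 with DCA+FGF2 against 797 ± 75.7 with FGF2 at 24 h, a difference of 2.38 ± 0.12.

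**Figure D4:**
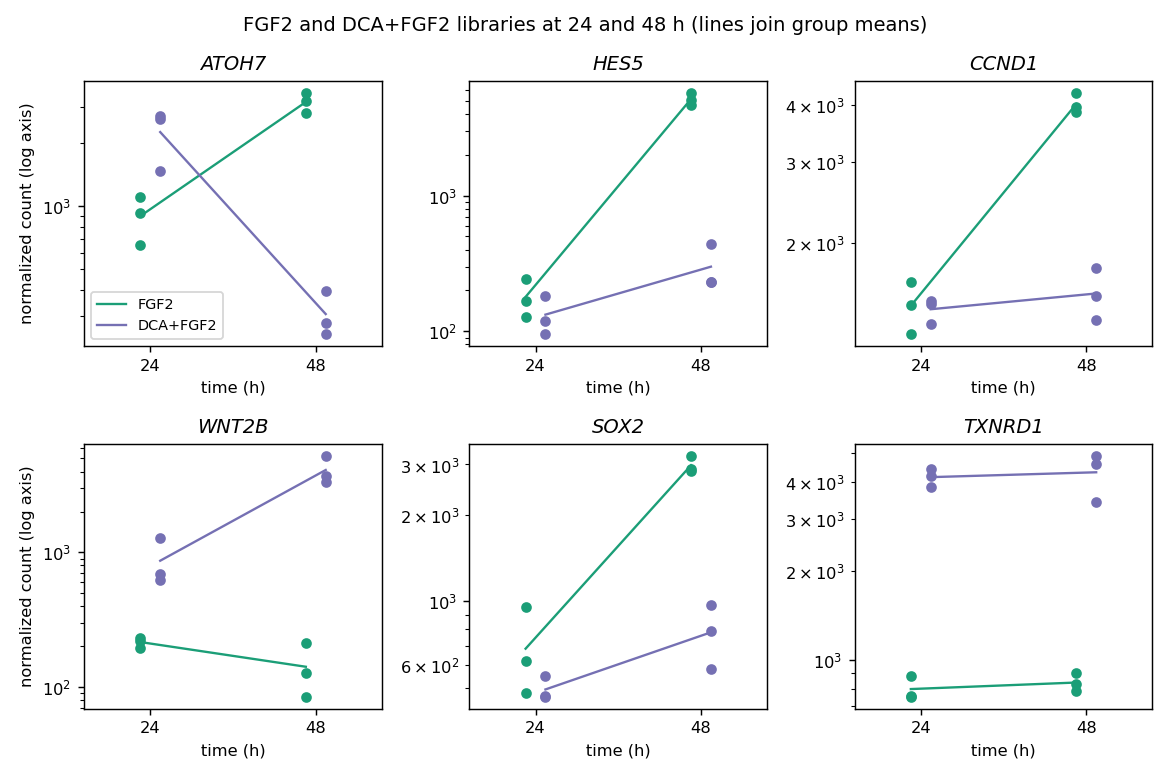
Normalized counts (log y axis, its range set for each panel) of 6 genes in the FGF2 (green) and DCA+FGF2 (purple) libraries at 24 and 48 h, with 3 points per group and lines joining the group means. HES5 and CCND1 separate at 48 h after overlapping at 24 h, ATOH7 crosses over, and TXNRD1 is apart at both times.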

How the data were processed

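The authors deposited one table of normalized read counts (signal, counts divided by a size factor per library) for 24356 genes and 24 libraries, made with Trim Galore 0.6.4, STAR 2.7.5b, StringTie 2.1.4 and DESeq2 1.34.0 on the build GRCg6a, per the submitters' processing notes. The sources used here do not give the counter or its strand setting, so overlapping, antisense and paralogous genes remain uncertain. Dividing each column by its smallest step gave whole reads for 100% of values within 0.001 of a read, and depth was taken from these.

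A gene entered the test when its 24-library mean was 10 or more. Values were analysed as log2(normalized count + 1), which understates changes of low genes. One limma-trend fit (limma 3.58.1, R 4.3.3) of 8 groups, with 16 degrees of freedom left, gave the DCA+FGF2 minus FGF2 contrast at 48 h, its difference from DCA minus control at 48 h, and its difference from 24 h. The fit was also run on simulated counts with a fixed spread and changes planted in few genes. Far more genes were called in the data, so that run does not check the fit or scaling in this setting. P-values were adjusted by the Benjamini-Hochberg method over all 15001 genes.

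The comparison, the 36 gene lists and the naming rule were chosen with earlier results of these data known, and the list of 12 mitochondrially encoded genes was added after the files were seen. Named genes are the 15 highest and 15 lowest called genes among those with a symbol, no overlap between replicates of the groups and 100 or more counts on average in the 6 libraries, up to 6 members of a list with the smallest adjusted p, a fixed set of eye and metabolic genes, and the 8 most positive and negative genes of each further test. Not all of them are described, and some genes are not reported here. Alternatives were other pseudocounts, filters, scalings and fits, a 1.5-fold threshold, a replicate block, edgeR 4.0.16 and DESeq2 1.42.0 on the recovered reads, FGF2 replicate 3 thinned, and each library left out.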

Additional observations from a re-analysis of the deposited data

Results flagged for a closer look

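The DCA effect differed with FGF2 present or absent for 4517 genes at 48 h, and it differed between 24 and 48 h of FGF2 for 2569 genes, each by a test of the difference itself. The 8 most positive and 8 most negative genes of each test are given here with their limma log2 value.

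With FGF2 present, the DCA difference was more positive for CGA (4.76), GCNT2 (4.32), BMPER (4.21), RGS16 (4.07), FHL1 (3.97), AGMO (3.77), HAS2 (3.70) and DMGDH (3.65). CGA, a glycoprotein hormone subunit, had 0, 0 and 1.65 with FGF2, so its fitted value depends on the pseudocount, and its DCA libraries spread from 126 to 1092. AGMO lost its call under 9 other settings besides the 1.5-fold threshold. The blood group enzyme GCNT2 had 15.3, 16.2 and 44.0 with FGF2 and 405, 192 and 291 with DCA added, and the signalling regulator RGS16 had 39.4, 27.7 and 21.4 with FGF2 and 498, 342 and 331 with both. FHL1, a LIM protein of muscle and fibroblasts, had 15.3, 16.2 and 25.8 with FGF2 and 417, 214 and 282 with both, with 187 to 510 in the DCA libraries and 273 to 306 in control.

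The DCA difference was more negative with FGF2 for FGF19 (-5.26), HES5 (-4.56), MYB (-4.41), FOXN4 (-4.36), ZNF750 (-4.17), MARCHF3 (-3.98), TGM4 (-3.84) and ANKK1 (-3.66). FGF19, a ligand made by the embryonic retina, had 629, 511 and 501 with FGF2, 49.6, 65.5 and 22.7 with both, 6.06, 6.57 and 8.19 in control and 47.0, 15.8 and 16.0 with DCA. ZNF750 was listed at 0 in all 6 libraries without FGF2, so its value rests on the libraries with FGF2. TGM4 lost its call under 12 other settings besides the 1.5-fold threshold.

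Between the times, the DCA difference with FGF2 became more positive for CYP24A1 (3.46), MYH1B (3.42), CPLX1 (3.22), TSPAN8 (3.20), ASL1 (3.15), WNT2B (3.00), SOX3 (2.98) and MOXD1 (2.83). CPLX1, a regulator of synaptic vesicle release, had 53.7, 43.0 and 73.6 with FGF2 and 1077, 750.0 and 854 with both at 48 h. MOXD1 had 1272 ± 138 (SD, n = 3) and 1216 ± 296 at 24 h, and 193, 241 and 159 with FGF2 and 1559, 1031 and 1384 with both at 48 h. TSPAN8 was not called without FGF2 replicate 1 of either time.

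It became more negative for ATOH7 (-4.70), HES5 (-3.73), CYP26A1 (-3.34), POU4F3 (-3.25), MYB (-3.20), MFNG (-3.15), KLHL4 (-3.09) and CKMT1B (-3.07). CKMT1B, a mitochondrial creatine kinase, had 1059 ± 184 with FGF2 and 883 ± 285 with both at 24 h, and 11962, 11149 and 11076 with FGF2 and 839, 1527 and 1042 with both at 48 h. POU4F3 was not called without DCA+FGF2 replicate 1 of 48 h (-2.83).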

How the results depend on the processing

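The count of called genes stayed within 1.5 times its main value under every alternative except the 1.5-fold threshold (limma's treat). Against that threshold, 2064 genes were called between DCA+FGF2 and FGF2 at 48 h (1271 higher, 793 lower), which raises the share of higher calls from 48.2% to 61.6%. The interaction then had 519 (334 positive, 185 negative) and the time difference 190 (110 positive, 80 negative). With 1 library left out, the contrast at 48 h had 7058 to 7378 calls (3423 to 3595 higher, 3620 to 3783 lower). The interaction had 3977 to 4387 (1997 to 2223 and 1974 to 2164) and the time difference 2017 to 2421 (1079 to 1300 and 937 to 1121). On recovered reads, edgeR called 7908, 4510 and 2567 genes and DESeq2 8088, 4804 and 2971, and with FGF2 replicate 3 thinned there were 7929, 4527 and 2569. Same-numbered libraries of the FGF2 and DCA+FGF2 groups at 48 h showed little shared variation (r of 0.02, 0.09 and -0.01). This cannot show whether same-numbered libraries were prepared together, and the main fit did not pair them. A replicate block within each time gave 7856, 4473 and 2487 calls, and a block over both times 7873, 4490 and 2497. PDK2, which was never called, changed sign under TMM scaling (-0.0172), quantile normalization (-0.0488) and array weights (-0.00668). With 1 library left out it ran from -0.0452 to 0.0542, with -0.00195 without FGF2 replicate 2. Groups of 3 limit which small changes can be called, and p-values reflect the spread between pools of explants.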
